A study of Mus musculus with 16 samples.

Results

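The mitochondrial carrier family Slc25 was followed through short-read RNA-Seq of 8 mouse tissues under fed and fasting conditions. Members were the protein-coding genes of the deposited count table whose identifier mapped to a symbol made of Slc25a and a number, which gave 47 of 55385 genes, or 47 of 21897 protein-coding genes. The mice were wild-type C57BL/6 males that had arrived at the age of 12 weeks. The fed group had free access to chow, and the fasting group was without food for 24 h. Heart, lung, liver, kidney, spleen, muscle and both white and brown adipose tissue of the 3 mice of a group were pooled tissue by tissue, so that each of the 16 libraries is a pool and no value below has a replicate error. Which muscle and which white adipose depot was taken is not given in the labels.

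Slc25 proteins sit in the inner membrane of the mitochondrion, with a few exceptions in the peroxisome or the outer membrane, and exchange solutes that cannot cross it unaided. They move ADP and ATP, phosphate, citrate and other acids, amino acids, cofactors, iron and acylcarnitines, and so join cytosolic metabolism to respiration, fatty acid oxidation, urea synthesis and lipid synthesis. During a fast, tissues oxidise more fatty acids, the liver makes glucose, ketone bodies and urea, and fatty acid synthesis falls. By substrate, 9 members were placed with adenine nucleotide and phosphate carriers, 4 with di- and tricarboxylate and keto acid carriers, 11 with carriers of amino acids, ornithine or glutathione, and 9 with carriers of cofactors and nucleotides. The acylcarnitine carrier stood alone, 2 members were iron carriers, 3 were like uncoupling proteins, and 8 were less known or other.

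Library totals ran from 14245178 to 36069968 counts on genes, and 3 counts corresponded to 0.0832 to 0.211 CPM (read counts scaled to the library total). Such a floor covers counting error only. The marker list of each tissue had its highest sum in the libraries of that tissue, though single genes were higher elsewhere, as Nppa and Myl7 in fed lung than in heart, Elovl3 in liver than in brown adipose tissue and Fabp4 in brown than in white adipose tissue. Beside each tissue below stand the marker lists of other cell types whose summed level reached 10 CPM and differed by more than 1.5 times between its fed and its fasting library. The part of such cells in the results was not tested. Because bulk tissue was sequenced, fewer cells of a type and less RNA per cell cannot be told apart.

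Promoters of 4 members are shown because their genes carry the main patterns described below, namely the member with the largest shared rise under fasting (Slc25a34), the liver-restricted member (Slc25a47), the member with the largest rise in kidney (Slc25a25) and the acylcarnitine carrier (Slc25a20). Each run covers bases -200 to -51 before the RefSeq start of the gene on build GRCm38.p6, written 5′ to 3′ on the gene's strand. Capitals mark the extended nuclear receptor half-site AAGGTCA on the reverse strand in Slc25a34, the half-site AGGTCA on the reverse strand in Slc25a47 and the cAMP response element TGACGTCA in Slc25a25. RefSeq lists 3 starts for Slc25a25, and the one with the element was shown. The windows lie at chr4:141623885-141624034 (-), chr12:108850929-108851078 (+), chr2:32424117-32424266 (-) and chr9:108661936-108662085 (+), in the order below. The windows of Slc25a34 and Slc25a20 lie just before the span of these genes in the count table, and those of Slc25a47 and Slc25a25 inside it, since these spans include farther upstream starts.
Slc25a34: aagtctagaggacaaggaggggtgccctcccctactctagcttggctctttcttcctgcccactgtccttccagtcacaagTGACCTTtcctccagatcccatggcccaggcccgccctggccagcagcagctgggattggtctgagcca
Slc25a47: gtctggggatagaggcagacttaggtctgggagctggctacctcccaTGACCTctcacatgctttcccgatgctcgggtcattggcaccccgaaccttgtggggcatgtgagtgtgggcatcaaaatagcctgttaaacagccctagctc
Slc25a25: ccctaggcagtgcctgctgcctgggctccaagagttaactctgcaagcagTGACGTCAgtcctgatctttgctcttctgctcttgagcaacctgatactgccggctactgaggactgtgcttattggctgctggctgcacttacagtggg
Slc25a20: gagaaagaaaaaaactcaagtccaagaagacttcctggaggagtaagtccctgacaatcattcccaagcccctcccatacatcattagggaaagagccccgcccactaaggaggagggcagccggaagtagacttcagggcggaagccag

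The table of promoters held 46 windows for 36 of the 47 members, each of 250 bases before to 50 bases after a start. Both strands were searched for 5 motifs. AGGTCA, the half-site of many nuclear receptors, occurred in 4 of the 46 windows (Slc25a34, Slc25a39, Slc25a45 and Slc25a47) and in 16.3% of all 32851 windows. Its extended form AAGGTCA, which contains AGGTCA, occurred in 1 of the 46 (Slc25a34) and in 4.72% of all windows. TGACGTCA occurred in 2 of the 46 (Slc25a25 and Slc25a36) and in 1.79% of all windows. The E-box CACGTG occurred in 8 of the 46, from 7 members, and in 7.15% of all windows. A direct repeat of the half-site with 1 base between, bound by PPAR and HNF4 receptors, was found in the window of no member and in 0.0396% of all windows. A match of letters is a description and not a binding site, and its absence from a window says nothing of sites elsewhere.

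First, the abundance of the family was compared between tissues. Slc25 transcripts took the largest share of the library in heart, at 0.869% (fed) and 0.867% (fasting) of counts, and the smallest in lung, at 0.177% and 0.173%, and in spleen, at 0.174% and 0.187%. Summed CPM was 8689 and 8675 in heart, 4837 and 5560.4 in kidney, 4733 and 4702 in brown adipose tissue, 3463 and 5079 in liver, 4418 and 3759 in muscle, and 2460 and 2169 in white adipose tissue, with the fed library given first. Liver, kidney and spleen (1739.6 and 1873 CPM) had the higher sum under fasting, muscle and white adipose tissue the lower. Heart was the highest tissue and spleen and lung the lowest under each scaling, but the place of muscle depended on it. A TMM-scaled sum averaged 7448 in muscle and 6666 in liver against 4956 in kidney.

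Of the 47 members, 36 reached at least 1 CPM in all 16 libraries and 44 in at least 1 library. Slc25a31, the ADP/ATP carrier of germ cells, Slc25a41 and Slc25a54 stayed below 1 CPM throughout, and Slc25a54 had no count in any library. Among the 44, the highest mean level fell in brown adipose tissue for 12 members, in kidney for 10, in spleen for 8, in liver for 5, in heart for 4, in lung for 3, and in muscle and white adipose tissue for 1 each. In 32 of the 44 (72.7%) both libraries of the top tissue lay above all other 14 libraries. This separation was seen in 71.2% of all protein-coding genes that reached 1 CPM, a share close to that of the members.

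**Figure D1:**
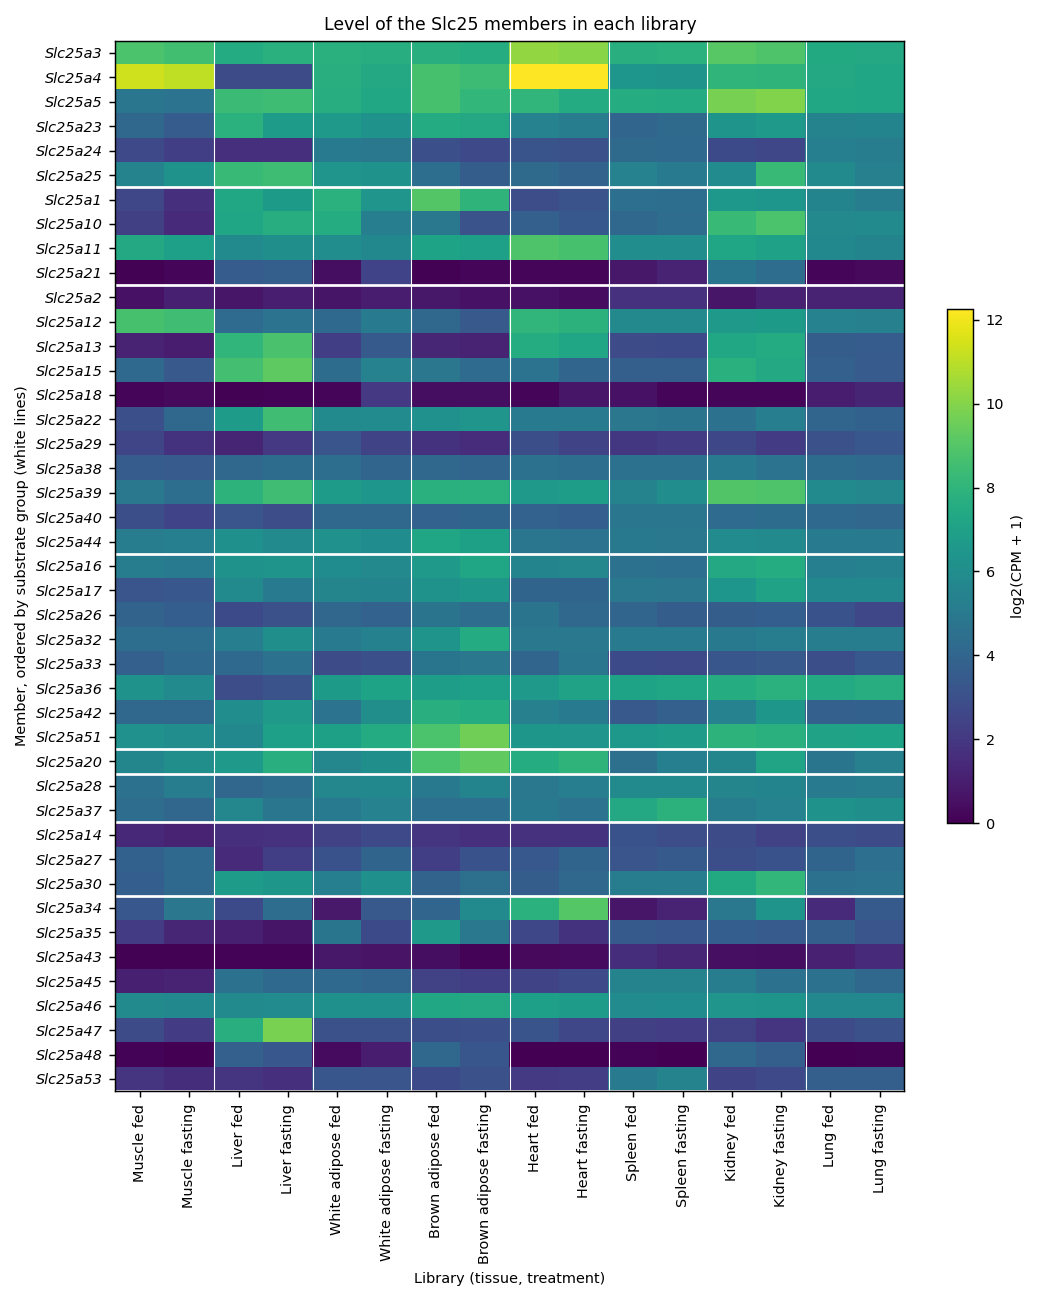
Level of members that reached 1 CPM, as log2(CPM + 1), in the 16 libraries (columns, fed then fasting for each tissue), with members in rows by substrate group. Rows can be compared from left to right but not with each other, since CPM is not divided by gene length; Slc25a4 is brightest in heart and muscle, Slc25a47 in liver and Slc25a51 in brown adipose tissue.

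Levels of different genes were compared per length, as CPM per kb of the deposited gene length. The 5 members with the highest mean over the 16 libraries were Slc25a4 (448 CPM per kb), Slc25a5 (181), Slc25a3 (69.2), Slc25a11 (64.1) and Slc25a39 (60.6). Slc25a4 and Slc25a5 encode the ADP/ATP carriers, which bring ADP into the matrix and release ATP. They are close paralogues, and how reads that fit both, or their pseudogene copies, were handled is not given in the sources used here.

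The ADP/ATP carriers differed in the tissues where they were highest. Slc25a4 (chr8:46206797-46211284, minus strand) measured 2090.0 CPM per kb in fed and 2086 in fasting heart, 1147 and 938 in muscle, 178 and 144 in brown adipose tissue, 112 and 107 in kidney, 88.7 and 71.8 in white adipose tissue, 71.8 and 63.0 in lung, 36.4 and 34.1 in spleen, and 2.55 in both liver libraries. Heart held 58.2% of its summed tissue means. Slc25a5 (chrX:36795651-36798807, plus strand) measured 522 and 597 CPM per kb in kidney, 254 and 171 in brown adipose tissue, 199 and 216 in liver, 161 and 111 in heart, 122 and 96.2 in white adipose tissue, 118 and 113 in spleen, 94.9 and 91.1 in lung, and 16.3 and 14.7 in muscle. Slc25a4 was thus the leading member in muscle and heart, where it gave 56.6% to 61.1% of the CPM of the whole family, and Slc25a5 led per length in 11 of the other 12 libraries. Fasting liver was the exception, where Slc25a47 reached 298 CPM per kb. The log2 difference of Slc25a4 from the mean of the other tissues was 5.07 (SE 0.10, adjusted p = 3.61e-11 by edgeR's quasi-likelihood test, Benjamini-Hochberg adjusted) in heart and -5.43 (SE 0.21, adjusted p = 1.75e-09) in liver. That of Slc25a5 was 2.39 (SE 0.14, adjusted p = 7.48e-08) in kidney and -2.43 (SE 0.20, adjusted p = 1.75e-06) in muscle. In these tissue contrasts, here and below, a tissue was represented only by its fed and its fasting pool. Their SE and p-values rest on the spread between pooled libraries and do not measure the spread between animals.

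**Figure D2:**
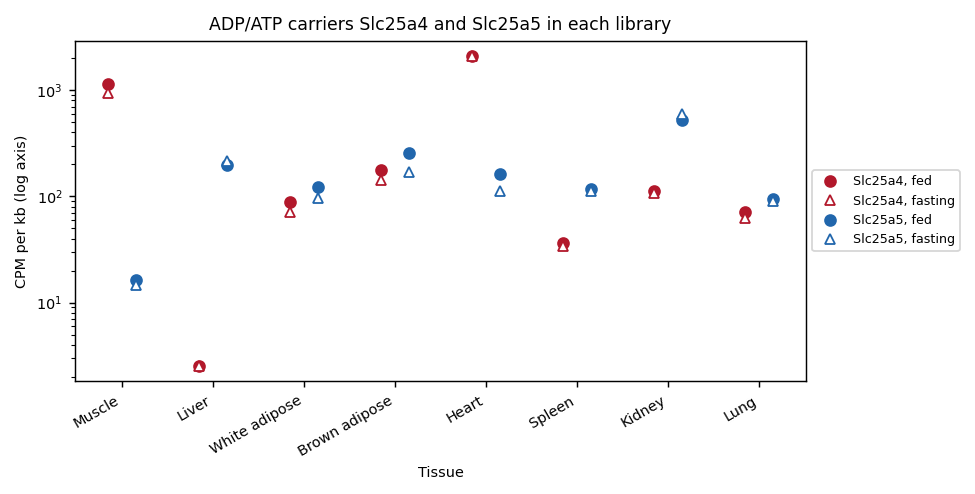
CPM per kb (log axis) of the ADP/ATP carriers Slc25a4 (red) and Slc25a5 (blue) in each tissue, with 1 fed (filled circle) and 1 fasting (open triangle) library per tissue. Slc25a4 runs from 2.55 in liver to 2090.0 in fed heart, whereas Slc25a5 runs from 14.7 in fasting muscle to 597 in fasting kidney.

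Slc25a3, the phosphate carrier, and Slc25a11, the oxoglutarate-malate exchanger of the malate-aspartate shuttle, had similar profiles with a peak in heart. Slc25a3 measured 222 (fed) and 196 (fasting) CPM per kb in heart, 97.8 and 85.6 in kidney, 79.5 and 66.7 in muscle, and between 30.2 and 40.4 in the libraries of the other 5 tissues. Slc25a11 measured 225 and 195 in heart, 79.9 and 56.7 in muscle, 68.4 and 61.1 in kidney, 65.4 and 56.3 in brown adipose tissue, and between 21.1 and 32.0 in the other 4 tissues. Slc25a39, a glutathione carrier, followed another order, with 179.7 and 169 CPM per kb in kidney, 88.2 and 131 in liver, 78.4 and 81.4 in brown adipose tissue, 34.5 and 42.5 in heart, 38.3 and 31.4 in white adipose tissue, 15.7 and 23.0 in spleen, 20.9 and 18.1 in lung, and 10.7 and 7.39 in muscle. Neighbouring tissues in these orders overlapped in part, for example muscle, kidney and brown adipose tissue for Slc25a11.

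More than 50% of the summed tissue means lay in a single tissue, at 5 CPM or more, for 7 of the 41 members that reached 5 CPM in a library. Among the 14501 protein-coding genes that reached 5 CPM in a library, 3481 (24.01%) met both conditions. Slc25a47 (chr12:108836046-108856815, plus strand), a carrier known from hepatocytes whose promoter is printed above, was the most restricted, with 93.2% of its summed level in liver. It measured 207 CPM in fed and 891 CPM in fasting liver and 2.75 to 8.02 CPM in the other 14 libraries, and its log2 difference in liver was 7.40 (SE 0.32, edgeR adjusted p = 4.56e-09). Slc25a34 (chr4:141618824-141623821, minus strand), whose substrate is not settled, had 73.5% in heart, where its log2 difference was 5.56 (SE 0.21, edgeR adjusted p = 2.72e-09). Slc25a15 (chr8:22375551-22398597, minus strand), the ornithine carrier of the urea cycle, had 61.9% in liver, at 385 and 606 CPM, followed by 218 and 169 CPM in kidney and no more than 42.7 CPM elsewhere.

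Brown adipose tissue held 53.8% of Slc25a35 (chr11:68968131-68974365, plus strand), of uncertain substrate, at 97.8 CPM (fed) and 28.9 CPM (fasting). Of the exonic length of Slc25a35, 31.3% overlaps the antisense gene Rangrf. The strand setting of the counting is not given in the sources used here, so reads of both genes may be mixed there. Kidney held 59.9% of Slc25a21 (chr12:56712634-57197472, minus strand), the oxodicarboxylate carrier of lysine breakdown, at 25.9 and 20.2 CPM. Slc25a21 measured 10.9 and 12.1 CPM in liver and at most 4.45 CPM in the other 12 libraries.

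Among the aspartate-glutamate carriers, which serve the malate-aspartate shuttle, the isoforms differed in the tissues where they were highest. Slc25a12 measured 416 and 356 CPM in muscle, 266 and 235 in heart, and 18.7 and 24.9 in liver. Slc25a13 measured 268 and 421 CPM in liver, 164 and 187 in kidney, and 1.37 and 0.905 in muscle. Heart held both, with 190.3 and 152 CPM of Slc25a13, as did kidney, with 97.3 and 100.5 CPM of Slc25a12. The log2 difference in muscle was 4.11 (SE 0.16, edgeR adjusted p = 2.81e-09) for Slc25a12 and -3.47 (SE 0.35, edgeR adjusted p = 8.76e-06) for Slc25a13.

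Each tissue was next set against the mean of the other 7 for all 45 members that passed the expression filter, and a member was called at an adjusted p below 0.05 with a log2 difference above 1 (edgeR). Brown adipose tissue had 18 members higher and 7 lower, where 12.1% and 10.7% of all 23580 genes tested were higher and lower. Its higher members included the citrate carrier Slc25a1, the acylcarnitine carrier Slc25a20, the coenzyme A carrier Slc25a42 and the NAD carrier Slc25a51. Kidney had 15 higher and 1 lower, against 18.0% and 11.5% of all genes, and liver 21 higher and 6 lower, against 16.3% and 18.4%. Both shared Slc25a13, Slc25a15, Slc25a21, Slc25a5, Slc25a10 and Slc25a39 among the higher members. TMM factors scale libraries so that most genes do not differ. With library totals in their place the liver count became 13 higher and 11 lower.

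Spleen had 4 members higher and 22 lower, against 24.8% and 20.8% of all genes, and lung 3 higher and 21 lower, against 23.2% and 11.2%. Slc25a37, the mitoferrin that imports iron for heme in developing red cells, was higher in spleen with a log2 difference of 1.93 (SE 0.16, edgeR adjusted p = 1.22e-06), as was Slc25a53, at 2.22 (SE 0.14, edgeR adjusted p = 1.04e-07). Heart had 10 higher and 8 lower, against 14.1% and 10.2%, muscle 8 higher and 10 lower, against 15.7% and 16.4%, and white adipose tissue 3 higher and 7 lower, against 17.3% and 5.77%. On library totals these splits were 9 higher and 12 lower in spleen, 9 and 10 in lung, 8 and 11 in heart, 2 and 24 in muscle, and 7 and 4 in white adipose tissue. The median over all genes moved with that over the members, from -0.04 to 0.64 beside -1.06 to -0.37 in spleen, from 0.04 to 0.66 beside -0.97 to -0.35 in lung, and from -0.13 to -0.87 beside 0.68 to -0.06 in liver. In muscle it moved from -0.22 to -1.23 over all genes, beside -0.15 to -1.16 over the members. Heart moved from -0.16 to -0.35 beside -0.11 to -0.30, and white adipose tissue from 0.03 to 0.51 beside -0.17 to 0.33. Shares of all genes called on library totals were not computed. Slc25a31 was among the higher members of brown adipose tissue, heart and lung although it never exceeded 0.813 CPM.

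Over the 8 fed libraries, the level of each member was also set beside the summed level of 14 nuclear genes for respiratory chain and ATP synthase subunits, which ran from 1795 CPM in spleen to 20692 CPM in heart. Of 39 members with a median of at least 1 CPM, 6 had a Pearson correlation of log2 levels above 0.7 (Slc25a46, Slc25a34, Slc25a20, Slc25a11, Slc25a33 and Slc25a42) and 15 had one below 0, with a median of 0.19. Without brown adipose tissue and heart, the 2 tissues farthest from the median, 3 members were above 0.7, Slc25a3 (0.87), Slc25a34 (0.86) and Slc25a11 (0.85), of which the last 2 were among the 6. These values describe 8 libraries of differing composition and carry no test. The correlation was computed for members only, so these counts have no share over all genes beside them. They cannot be read as a trait of the family.

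Next, fasting was compared with feeding within each tissue. With 1 library per treatment, Fisher's exact test (two-sided) compared the 2 libraries and not the conditions. A gene with a mean of 1 CPM or more was called at an absolute log2 fold change above 0.5 (with 0.01 CPM added to each value) and an unadjusted p below 0.01. Of the 44 members tested in a tissue, 33 were called in at least 1 tissue, 7 of them in both directions in different tissues, and 11 in none. Of all 21284 genes tested in a tissue, 55.2% were called in at least 1 and 8.49% in both directions. Of the 37 members tested in all 8 tissues, 28 were called and 7 in both directions, against 55.1% and 8.17% of all such genes. The ADP/ATP carrier Slc25a4, the phosphate carrier Slc25a3, the oxoglutarate carrier Slc25a11 and the branched-chain amino acid carrier Slc25a44 were among the 11. For Slc25a3 and Slc25a4 the log2 fold changes lay between -0.31 and 0.25 in all 8 tissues.

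**Figure D3:**
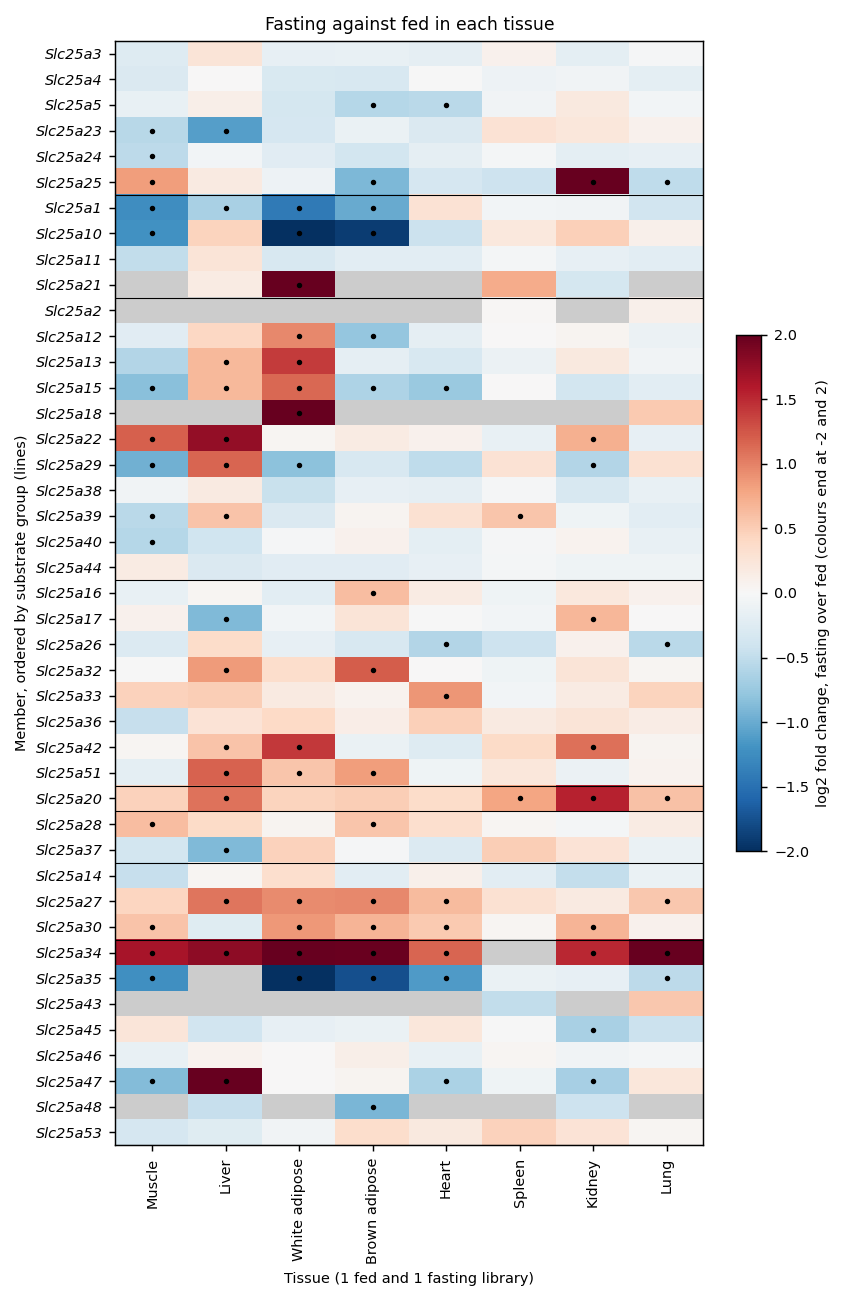
log2 fold change of fasting over fed for members (rows, by substrate group) in 8 tissues (columns), with 1 fed and 1 fasting library per tissue. Red is higher and blue lower under fasting, grey cells had a mean below 1 CPM, and dots mark the called members. The row of Slc25a34 is red in every tissue tested, and the dots are most frequent in muscle, liver, brown adipose and white adipose tissue and fewest in spleen.

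In liver, 12 of 40 members tested were higher and 4 lower under fasting, against 7.15% and 15.8% of all genes tested. Their median log2 fold change was 0.22, against -0.13 over all genes. On TMM or DESeq2 scaling the median of all genes moved to 0.00 and that of the members to 0.34. The largest rise was that of Slc25a47, from 207 to 891 CPM (log2 fold change 2.11). The glutamate carrier Slc25a22 rose from 109 to 368 CPM, the ornithine carrier Slc25a15 from 385 to 606 CPM, the aspartate-glutamate carrier Slc25a13 from 268 to 421 CPM and the NAD carrier Slc25a51 from 52.6 to 119 CPM. The largest fall was in Slc25a23, an ATP-Mg/phosphate carrier, from 229 to 107 CPM (-1.10). Of 6 urea cycle genes tested in liver, 4 were higher, Cps1, Asl and Ass1 among them, and 1 lower (Otc). Pancreatic acinar markers summed to 108 CPM in fed and 229.7 CPM in fasting liver, with 6 of 7 genes higher, those of dividing cells to 10.9 and 6.73 CPM, and those of brown adipocytes to 541 and 242 CPM, nearly all of it Elovl3.

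In white adipose tissue 10 of 41 members were higher and 5 lower, against 18.9% and 9.14% of all genes. The dicarboxylate carrier Slc25a10 fell from 191 to 37.2 CPM (-2.36), the largest fall, and the citrate carrier Slc25a1 from 224 to 84.3 CPM (-1.41). Slc25a34 had the largest rise among members with a mean of 5 CPM, from 0.816 to 9.59 CPM (3.54), and Slc25a42 rose from 24.9 to 66.1 CPM. The B and T cell markers summed to 344 and 81.7 CPM, of which Ighm alone gave 338 and 76.3 CPM, and the 4 epididymis markers to 10.1 and 1.06 CPM. The hepatocyte list moved from 2500 to 3885 CPM through Cyp2e1 (2393 and 3784 CPM). Of the adipocyte markers, Plin1 measured 2021 and 746 CPM.

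In brown adipose tissue 7 of 40 members were higher and 9 lower, against 8.71% and 12.2% of all genes. Slc25a34 rose most, from 14.8 to 58.3 CPM (1.98). Slc25a32, which carries folate and flavin cofactors, rose from 81.2 to 188 CPM, and Slc25a51 from 436 to 779.6 CPM. Slc25a10 fell most, from 28.8 to 7.72 CPM (-1.90), Slc25a35 from 97.8 to 28.9 CPM and Slc25a1 from 503 to 251 CPM. The 5 muscle fibre markers, which summed to 2293 and 1064 CPM, were each lower in the fasting library, and the sums of B and T cell (17.3 and 10.8 CPM) and dividing cell markers (12.8 and 6.60 CPM) were lower too.

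Muscle had 5 of 39 members higher and 11 lower, against 7.80% and 16.2% of all genes. On TMM or DESeq2 scaling the split was 8 higher and 7 lower. Of all genes, 1363 were then higher and 1813 lower of 14695 on TMM scaling, and 1367 and 1813 of 14771 on DESeq2 scaling. Slc25a34 rose from 8.89 to 28.0 CPM (1.65) and Slc25a22 from 7.02 to 16.1 CPM. Cardiomyocyte markers summed to 32.3 and 20.4 CPM. The adipocyte sum was 216 and 202 CPM, but Adipoq (16.1 and 6.79), Plin1 (11.5 and 3.33) and Cfd (56.4 and 28.5) were lower in fasting muscle while Fabp4 and Lipe were higher. Heart had 4 of 39 higher and 6 lower, against 6.88% and 9.65%. Slc25a34 rose from 231 to 519 CPM (1.17), the largest gain in CPM of this gene in any tissue, and the nucleotide carrier Slc25a33 from 14.9 to 27.3 CPM, whereas Slc25a5 fell from 265 to 183 CPM, a call lost on TMM or DESeq2 scaling. In heart the sums were 416 and 948 CPM for adipocyte markers, mostly Fabp4, 28.9 and 89.1 CPM for hepatocyte markers, and 27.3 and 17.2 CPM for B and T cell markers.

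In kidney 7 of 41 members were higher and 4 lower, against 4.35% and 6.10% of all genes. Slc25a25, a calcium-regulated ATP-Mg/phosphate carrier, rose from 58.7 to 309 CPM (2.39), and Slc25a20 from 48.6 to 142 CPM (1.54). The window printed above for Slc25a25 lies before 1 of 3 RefSeq starts, and counts per gene do not tell which start was used. The largest fall with a mean of 5 CPM was that of Slc25a45, from 35.5 to 22.7 CPM (-0.64). Adipocyte markers summed to 105 and 176 CPM, acinar markers to 58.4 and 23.0 CPM through Cela1, and dividing cell markers to 18.6 and 11.5 CPM. Lung had 3 of 42 higher and 3 lower, against 4.17% and 9.82%, with Slc25a34 rising from 1.86 to 9.93 CPM (2.41) and Slc25a26, the S-adenosylmethionine carrier, falling from 7.52 to 5.18 CPM (-0.54). On TMM or DESeq2 scaling lung had 4 higher and 0 lower, and with a pseudocount of 1 CPM 3 and 0, so that the call of Slc25a26 was lost. Of all genes, 883 were higher and 1231 lower of 16245 on TMM scaling, and 875 and 1240 of 16240 on DESeq2 scaling. With that pseudocount they were 629 and 1395 of 17175. All 5 genes of each of 3 lists were lower in fasting lung, with sums of 968 and 483 CPM for cardiomyocytes, 308 and 156 CPM for B and T cells, and 107 and 56.4 CPM for dividing cells, whereas adipocyte markers summed to 157 and 264 CPM and hepatocyte markers to 32.4 and 56.2 CPM. Spleen had the fewest, 2 of 41 higher and 0 lower, against 3.53% and 2.14%. These were Slc25a20, from 21.9 to 38.0 CPM (0.80), and Slc25a39, from 43.2 to 63.4 CPM. Slc25a37 measured 167 CPM in fed and 234 CPM in fasting spleen, a log2 fold change of 0.49 that did not pass the threshold on library totals but did on TMM (0.51) and DESeq2 (0.50) scaling, beside erythroid markers of 3871 and 9412 CPM. All 9 of these were higher in the fasting library, whereas all 7 acinar markers were lower, with sums of 529 and 11.6 CPM.

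By substrate group, 2 of the 4 carriers of di- and tricarboxylates, Slc25a1 and Slc25a10, were lower in several tissues, whereas Slc25a11 was called in none and Slc25a21 was higher in white adipose tissue, at 0.386 and 4.45 CPM. Slc25a1, which exports citrate for fatty acid synthesis, was lower in muscle (5.07 to 2.13 CPM), liver (161 to 103), white adipose tissue and brown adipose tissue, and measured 91.0 and 86.2 CPM in kidney, 44.8 and 34.4 in lung, 21.2 and 20.3 in spleen and 6.39 and 7.80 in heart. Slc25a10 was lower in muscle (3.99 to 1.71 CPM) and both adipose tissues, the muscle falls beside the adipocyte genes given for that tissue, and measured 145 and 198 CPM in liver and 319.6 and 444 CPM in kidney. Of 6 genes of citrate export and use, 5 were lower and 1 higher in liver, and the lower ones numbered 5 in white adipose tissue, 4 in brown adipose tissue, 3 in muscle, 2 in kidney, 1 in lung and 0 in heart and spleen, where between 2.14% (spleen) and 16.2% (muscle) of all genes were lower. Fasn, the fatty acid synthase, measured 1050.2 CPM in fed and 154 CPM in fasting liver.

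Among carriers of amino acids and glutathione, 5 of 9 tested members rose in liver and 0 fell, where 7.15% and 15.8% of all genes did. In muscle 1 of 9 rose and 4 fell, beside 7.80% and 16.2% of all genes, and on TMM or DESeq2 scaling 1 of 10 rose and 2 fell. The difference between these tissues was not tested. Slc25a15 rose in liver and white adipose tissue (19.2 to 42.7 CPM) and fell in muscle (17.4 to 9.73), brown adipose tissue (28.1 to 18.3) and heart (24.6 to 14.7). Among cofactor carriers, 3 of 9 rose and 1 fell in liver as in brown adipose tissue, where 8.71% and 12.2% of all genes rose and fell, with Slc25a32 and Slc25a51 higher in both, and in heart 1 rose and 2 fell (2 and 2 on TMM or DESeq2 scaling), against 6.88% and 9.65% of all genes. The iron carrier Slc25a28 rose in muscle (22.7 to 34.7 CPM) and brown adipose tissue (30.5 to 45.1), and Slc25a37 fell in liver (51.0 to 27.6). All counts here are comparisons of single libraries.

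To ask which members moved alike in the tissues, all 16 libraries were fitted together with the tissue as a block and treatment as a term. The fit had 7 residual degrees of freedom, and all tissues were of the same 2 groups of pooled mice, so its p-values measure the spread between tissues and not between animals. Of 45 members tested, 3 were higher under fasting at an adjusted p below 0.05 and 0 lower, against 1.03% and 0.840% of all 23580 genes. At an unadjusted p below 0.05, edgeR gave 10 members higher and 3 lower, against 8.37% and 10.3% of all genes, and DESeq2's Wald test called 6 higher and 2 lower, against 5.13% and 6.03% of the 16265 genes to which it gave an adjusted p. The median log2 fold change was 0.02 over the members and -0.01 over all genes.

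Slc25a34 showed the largest shared rise, with a log2 fold change of 1.89 (SE 0.20, edgeR adjusted p = 0.00275) and a higher fasting library in 8 of 8 tissues. Besides the values given for muscle, white and brown adipose tissue, heart and lung, it measured 5.77 and 19.9 CPM in liver, 28.7 and 81.7 CPM in kidney, and 0.662 and 1.33 CPM in spleen, fed first. The fold was smallest in heart and spleen (1.17 and 0.99 on the log2 scale) and largest in white adipose tissue. Between tissues the levels overlapped widely, but in heart both libraries lay above every other library.

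Slc25a20 (chr9:108662088-108684641, plus strand), the carnitine-acylcarnitine translocase that brings acylcarnitines to the matrix for oxidation, rose by 0.76 (SE 0.14, edgeR adjusted p = 0.0249), also in 8 of 8 tissues. It measured 442 and 622 CPM in brown adipose tissue, 194 and 252 in heart, 96.9 and 206 in liver, 50.02 and 68.0 in white adipose tissue, 48.3 and 66.4 in muscle, and 26.1 and 39.2 in lung. Brown adipose tissue lay above all others, fed or fasting. Within single tissues it was called in liver, spleen, kidney and lung.

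Slc25a27 (chr17:43641891-43667214, minus strand), an uncoupling-protein-like carrier first described in brain, rose by 0.66 (SE 0.12, edgeR adjusted p = 0.0230) in 8 of 8 tissues at low levels. It measured 14.5 and 21.1 CPM in lung, 13.0 and 17.6 in muscle, 9.47 and 14.7 in heart, 8.30 and 10.2 in spleen, 7.60 and 14.6 in white adipose tissue, 6.59 and 7.49 in kidney, 3.91 and 7.65 in brown adipose tissue, and 1.82 and 3.85 in liver. The calls of Slc25a20 and Slc25a27 were lost when muscle, brown adipose tissue, heart or lung was left out, though the log2 fold changes stayed between 0.77 and 0.81 for Slc25a20 and between 0.62 and 0.67 for Slc25a27, and the call of Slc25a27 also without both adipose tissues. The call of Slc25a34 held with each single tissue left out and without both adipose tissues.

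The following members in the order included Slc25a30, another uncoupling-protein-like carrier, at 0.43 (SE 0.11, edgeR adjusted p = 0.0724) and higher in 7 of 8 tissues, and Slc25a35 at -0.96 (SE 0.25, edgeR adjusted p = 0.0762), which was lower in 8 of 8 tissues. These did not pass the threshold in edgeR but did in DESeq2. Slc25a35 measured 26.5 and 5.76 CPM in white adipose tissue and 9.98 and 9.09 CPM in spleen, so the size of its difference varied widely between tissues.

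**Figure D4:**
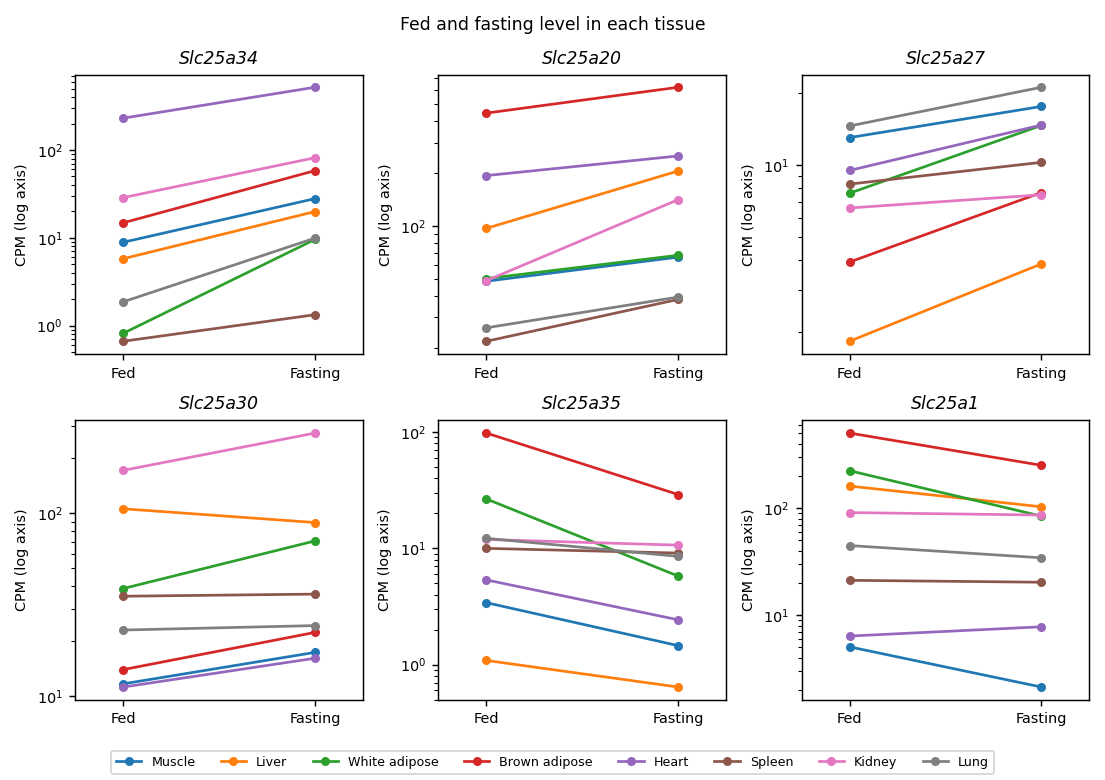
Level in CPM (log axis) of 6 members in the fed and the fasting library of each tissue, joined by a line. All 8 lines rise for Slc25a34, Slc25a20 and Slc25a27 and fall for Slc25a35, whereas 7 of 8 rise for Slc25a30 and 7 of 8 fall for Slc25a1.

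**Figure D5:**
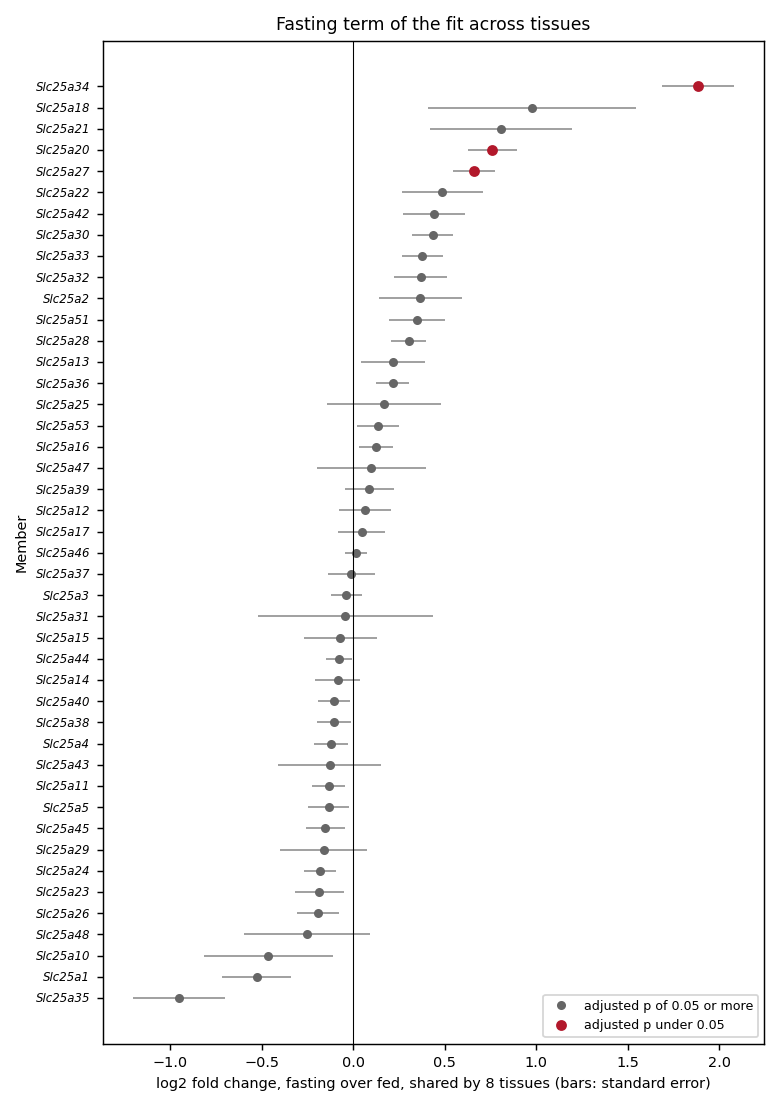
log2 fold change of fasting over fed shared by the 8 tissues (points) with its standard error (bars) for members tested, from the edgeR fit with tissue as a block. The 3 members in red, Slc25a34, Slc25a20 and Slc25a27, had an adjusted p below 0.05.

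The related genes of the pathways were read from the same fit. Of the carnitine shuttle, which feeds Slc25a20, 1 of 7 genes was called, Cpt1a, the acyltransferase of the outer membrane, with a log2 fold change of 0.96 (SE 0.16, edgeR adjusted p = 0.0203). Within tissues, 6 of 7 tested genes of this list were higher in kidney and 5 of 5 in liver, 2 of 7 in brown adipose tissue and in heart, 2 of 6 in lung, 1 of 7 in muscle, and 1 of 6 in white adipose tissue and in spleen, where between 3.53% (spleen) and 18.9% (white adipose tissue) of all genes were. Of 5 carrier proteins with other symbols, Ucp2 rose by 1.12 (SE 0.16, edgeR adjusted p = 0.0113) and Ucp3 by 1.39 (SE 0.31, edgeR adjusted p = 0.0498), while Ucp1, the uncoupling protein of thermogenesis, had a value of 0.00 (SE 0.28, edgeR adjusted p = 0.999) and measured 3132 and 2498 CPM in brown adipose tissue. Of 6 genes of citrate export and use, edgeR called 0 in either direction across tissues, with 5 lower at an unadjusted p below 0.05, and DESeq2 called 4 lower. The 15 respiratory chain genes included Atp5o under another identifier than the one without counts that kept it out of the sum above. Across tissues they gave 0 calls in edgeR, 0 at an unadjusted p below 0.05 and 0 in DESeq2, with a median log2 fold change of -0.10. Within tissues, 4 of 14 tested genes of this list were lower in white adipose tissue, against 9.14% of all genes. In every other tissue 0 were called.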

How the data were processed

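The authors pooled tissue, prepared strand-specific libraries and sequenced paired-end reads of 100 bases. They trimmed with fastp 0.23.2, checked with FastQC 0.11.8 and ran HISAT2 2.2.1.0 on GRCm38, then featureCounts (Subread 2.0) on GENCODE mouse release M24. Strand setting and treatment of multi-mapped reads are not given in the sources used here. The deposited values were whole-number counts per gene, not normalized, with the deposited gene length (an other value). Unused sample columns numbered 0.

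Symbols came from GENCODE mouse release M21 of the same build. CPM used library totals. Fold changes within a tissue, with 0.01 CPM added, were tested by Fisher's exact test, as in the study's methods. The fit across tissues and the tissue contrasts used edgeR 4.0.16 (R 4.3.3) with TMM factors, filterByExpr and Benjamini-Hochberg adjustment over 23580 genes. Its common coefficient of variation was 0.219. Promoters were RefSeq sequences. In simulated data with 200 altered genes, the fasting fit found 127 (7 false, 23065 genes), the heart contrast 192 (5 false, 21799 genes) and the test within a tissue 172 to 198 (31 to 51 false, 13245 to 17162 genes). For the test within a tissue the counts were drawn with counting error only, without any spread between animals or pools. Its false calls are therefore not an error rate for the real libraries. Python 3.11.15 with scipy 1.17.1 and DESeq2 1.42.0 were also used.

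Members and gene lists were chosen with earlier results of these data known. Named with values were the 5 highest members per length, those past the threshold across tissues, those with over 50% of their level in one tissue at 5 CPM or more, and the largest called rise and fall per tissue at a mean of 5 CPM or more. Some genes that these rules select are not reported here. The other examples, and the motifs searched, were chosen after values were seen. Alternatives were other scalings, filters, thresholds, assumed coefficients of variation, tools, and libraries left out.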

Additional observations from a re-analysis of the deposited data

Results flagged for a closer look

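For 7 members the called change under fasting had opposite signs in different tissues, as had 8.49% of all genes tested in at least 1 tissue. Such members numbered 8 on TMM or DESeq2 scaling, and 0 once the coefficient of variation was set at 0.2 or the log2 fold change at above 1. The difference between tissues was not tested, since each tissue has 1 library per treatment, and no cause was tested. Slc25a25 had a log2 fold change of 2.39 in kidney and -0.90 in brown adipose tissue. Slc25a47 had 2.11 in liver and -0.86 in muscle, where its level was 6.23 and 3.43 CPM. Slc25a29, the basic amino acid carrier, had 1.16 in liver, at 1.39 and 3.12 CPM, and -0.96 in muscle. Slc25a15 had 1.15 in white adipose tissue and -0.83 in muscle, and Slc25a12 had 0.96 in white and -0.77 in brown adipose tissue. Slc25a12 measured 416 CPM in fed muscle and 16.7 and 9.76 CPM in brown adipose tissue, where the summed muscle fibre markers were 2293 and 1064 CPM, and their part in this fall was not tested. Slc25a17, the peroxisomal carrier of coenzyme A and related cofactors, had 0.67 in kidney and -0.89 in liver, and Slc25a39 had 0.57 in liver and -0.53 in muscle, of which the muscle call was lost on TMM or DESeq2 scaling.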

How the results depend on the processing

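With 1 library per tissue and treatment, the calls within a tissue rest on counting error alone. When edgeR's exact test was given a coefficient of variation of 0.2 by assumption, the members called were 3 in muscle, 6 in liver, 10 in white and 4 in brown adipose tissue, 1 in heart, 0 in spleen, 4 in kidney and 1 in lung, and with 0.4 they were 0 in muscle, liver, brown adipose tissue, heart and spleen, 4 in white adipose tissue, and 1 each in kidney and lung. At 0.2, all genes called higher and lower were 242 and 368 of 13263 in muscle and 308 and 453 of 13644 in liver. They were 1563 and 338 of 16845 in white and 280 and 447 of 14853 in brown adipose tissue. Heart had 265 and 221 of 14690, spleen 97 and 66 of 16924, kidney 137 and 141 of 15621 and lung 126 and 279 of 17175. At 0.4 such genes were 851 and 37 in white adipose tissue, 18 and 10 in kidney, 22 and 24 in lung and at most 92 either way elsewhere. Of the 92 single calls of a member in a tissue, 29 held at 0.2 and 6 at 0.4, 82 on TMM or DESeq2 scaling, 85 with a pseudocount of 1 CPM (lung 3) and 92 without a filter, and none changed sign. At a log2 fold change above 1, 5 members were called in muscle, 8 in liver, 10 in white and 5 in brown adipose tissue, 2 in heart, 0 in spleen, 4 in kidney and 1 in lung. Out of the same totals of genes tested, 353 were then higher and 650 lower in muscle and 418 and 696 in liver. White adipose tissue had 1843 and 493, brown adipose tissue 450 and 727 and heart 399 and 421. Spleen had 180 and 109, kidney 232 and 250 and lung 206 and 487. Across tissues, the members called higher were 6 in DESeq2, 0 without the tissue block and 1 to 4 as each tissue was left out in turn, and those called lower were 2 in DESeq2, 1 on library totals, 1 without a filter and 0 as each tissue was left out. A filter by treatment group, added after seeing the data, gave 3 higher and 0 lower. In the comparison of tissues, library totals gave 2 higher and 24 lower in muscle, 13 and 11 in liver, 7 and 4 in white adipose tissue, 9 and 12 in spleen, and 9 and 10 in lung. On library totals the median log2 difference in muscle was -1.23 over all genes, beside -1.16 over the members. At a log2 difference above 2 the counts were 2 and 6 in muscle, 12 and 3 in liver, 0 and 2 in white adipose tissue, 8 and 4 in brown adipose tissue, 3 lower in heart, 2 and 9 in spleen, 9 and 0 in kidney, and 0 and 6 in lung. DESeq2 gave 2 lower in kidney. Shares of all genes called were not computed for these settings of the tissue comparison. Leaving out the fed or the fasting library of the tissue gave 3 to 5 lower in heart, 0 to 1 lower in kidney, and 1 to 2 higher in lung, and without fasting white adipose tissue the log2 difference of Slc25a18 there was -1.26 (2.78 without the fed library). Summed CPM of the family on TMM scaling averaged 7448 in muscle, 6666 in liver, 1744 in white adipose tissue, 4524 in brown adipose tissue, 9627 in heart, 1206 in spleen and 1224 in lung, and without the 10 highest genes 6491 in muscle, 2599 in white adipose tissue, 5460.3 in brown adipose tissue, 10535 in heart, 1959 in spleen, 5711 in kidney and 1908 in lung. Without division by length, Slc25a5 led 2 libraries and Slc25a4 the same number as before. The members with a correlation above 0.7 beside respiratory chain genes were 3 without brown adipose tissue and heart (2 of the 6 found with all tissues). The causes of these differences were not tested. No pairing by animal was possible, since the fed and the fasting mice were different animals. The mice of a group were also pooled into 1 library per tissue and treatment. The tissue block of the fit across tissues already compares fed with fasting within each tissue.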
